A study of Homo sapiens with 4 samples.

Results

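The genes described here are 32 genes of cholesterol and fatty acid synthesis together with the regulators that set their transcription. They were chosen by name with earlier results of these data known, so their counts are not an independent reading. They were read in PC14, a line of human lung cancer cells of the non-small-cell type, after sorting into 4 subpopulations. They are 32 of 19775 genes with a name on the arrays. The cells were sorted by fluorescence, first for the surface level of E-cadherin, the adhesion protein of epithelial cells, and then for green fluorescent protein from a lentivirus that reports the activity of the CD133 P1 promoter. The groups were E+CD133+ (E-cadherin-high and CD133-high, labelled epithelial stem-like cells), E-CD133+ (E-cadherin-low and CD133-high, mesenchymal stem-like), E+CD133- (E-cadherin-high and CD133-low, epithelial non-stem-like) and E-CD133- (E-cadherin-low and CD133-low, mesenchymal non-stem-like). All 4 groups come from 1 cell line and were kept under the same stated culture conditions, no drug or other agent is named in the labels, and each was measured on 1 Affymetrix array. There is therefore no replicate of any group, signals and pair ratios carry no error bar, and the standard errors given come only from an additive fit over the 4 arrays. The steadiness of a difference was read from 2 matched pairs of arrays per comparison and, where a gene has several probe sets, from the spread between them.

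Cells build cholesterol from acetyl-CoA through the mevalonate pathway, which first makes isoprenoid units, joins them into squalene and then closes and trims the sterol ring. Fatty acids are built from the same acetyl-CoA by a separate set of enzymes. Transcription of both sets is driven by the SREBP factors, membrane proteins of the endoplasmic reticulum that the escort protein SCAP carries to the Golgi for cleavage when membrane sterol is low, and that the INSIG proteins hold back when sterol is high. SREBP-2, encoded by SREBF2, acts mainly on the sterol genes, and SREBP-1, encoded by SREBF1, mainly on the fatty acid genes. Rapidly growing cancer cells often run this synthesis at a high rate.

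SREBPs bind a sterol element and act with NF-Y, which binds the CCAAT box, and with Sp1, which binds GC boxes. Promoter sequences of the members were therefore searched, although nothing in these arrays measures binding. RefSeq windows (assembly GRCh38.p14) of 300 bases, from 250 before to 50 after a transcription start, were held for 28 of the 32 members, not for ACAT2, FDFT1, SQLE or FASN. The 250 bases before the start are printed for 5 genes, 5' to 3' on the strand of the gene. HMGCS1, MSMO1 and INSIG1 are shown because they had higher signals in CD133-high cells, SREBF2 because it holds the sterol element, and SREBF1 as a regulator whose window holds neither. Capitals mark CCAAT (written ATTGG where it lies on the other strand), the E-box CACGTG and the 10 bases of the sterol element. GC boxes are left in lower case.
HMGCS1, chr5:43313413-43313662, minus strand: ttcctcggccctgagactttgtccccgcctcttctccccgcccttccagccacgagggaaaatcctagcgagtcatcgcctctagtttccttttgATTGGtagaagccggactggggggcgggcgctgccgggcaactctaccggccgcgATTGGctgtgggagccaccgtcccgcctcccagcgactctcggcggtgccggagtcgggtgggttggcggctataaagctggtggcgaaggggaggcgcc
MSMO1, chr4:165327419-165327668, plus strand: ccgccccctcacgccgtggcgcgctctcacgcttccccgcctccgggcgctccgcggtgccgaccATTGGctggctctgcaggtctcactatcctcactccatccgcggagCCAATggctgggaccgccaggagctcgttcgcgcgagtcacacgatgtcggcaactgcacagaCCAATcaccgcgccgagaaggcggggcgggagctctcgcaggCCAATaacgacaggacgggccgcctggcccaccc
INSIG1, chr7:155297628-155297877, plus strand: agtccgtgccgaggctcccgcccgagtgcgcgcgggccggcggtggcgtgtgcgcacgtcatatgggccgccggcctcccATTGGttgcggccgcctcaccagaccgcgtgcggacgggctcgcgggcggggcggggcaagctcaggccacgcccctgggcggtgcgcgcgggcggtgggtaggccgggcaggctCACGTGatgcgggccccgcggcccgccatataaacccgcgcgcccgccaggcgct
SREBF2, chr22:41832855-41833104, plus strand: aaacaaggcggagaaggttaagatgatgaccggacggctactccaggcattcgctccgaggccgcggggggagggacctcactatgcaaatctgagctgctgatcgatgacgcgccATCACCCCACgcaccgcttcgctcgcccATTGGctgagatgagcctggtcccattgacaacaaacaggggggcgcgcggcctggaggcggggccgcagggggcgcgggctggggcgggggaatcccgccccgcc
SREBF1, chr17:17836987-17837236, minus strand: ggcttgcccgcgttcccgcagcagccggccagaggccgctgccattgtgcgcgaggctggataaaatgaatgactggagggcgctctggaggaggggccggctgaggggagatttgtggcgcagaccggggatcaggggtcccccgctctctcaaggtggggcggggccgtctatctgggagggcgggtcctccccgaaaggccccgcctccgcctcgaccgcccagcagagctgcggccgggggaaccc

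A CCAAT box, searched as these 5 letters on both strands, was present in a window of 21 of 28 members (75.0%), against 42.5% of the 11331 measured genes with a window. At least 2 CCAAT boxes in a window were found in 14 of 28 members (50%), against 15.6% of measured genes. Some genes have several windows, and counting only the first window of each gene gave 17 of 28 members against 36.3%. MSMO1 held 4 CCAAT boxes in its window, NSDHL and MVK 5 each and FDPS, EBP and MVD 3 each. Overlapping matches on opposite strands were counted separately throughout, as in NSDHL (first bases at -113 and -110) and IDI1 (-132 and -129). PMVK, CYP51A1, INSIG2, SREBF1, SCAP, ELOVL6 and FADS1 held none. The GC box GGGCGG was present in 27 of 28 members and in 73.7% of measured genes. The E-box CACGTG was present in LSS, SC5D, INSIG1 and SCAP, 4 of 28 members, against 12.3%. The sterol element TCACNCCAC was found in SREBF2 alone among the members, inside a longer form of 10 bases that was also searched, and the shares of measured genes were 1.40% for the first and 0.0618% for the longer form. A match of letters is a description of the window, and its absence says nothing about binding. In the upstream-most window of each member, 24 of 38 CCAAT boxes started between 150 and 30 bases before the transcription start. The same share over all measured genes was not computed, so this is no trait particular to the members.

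**Figure D1:**
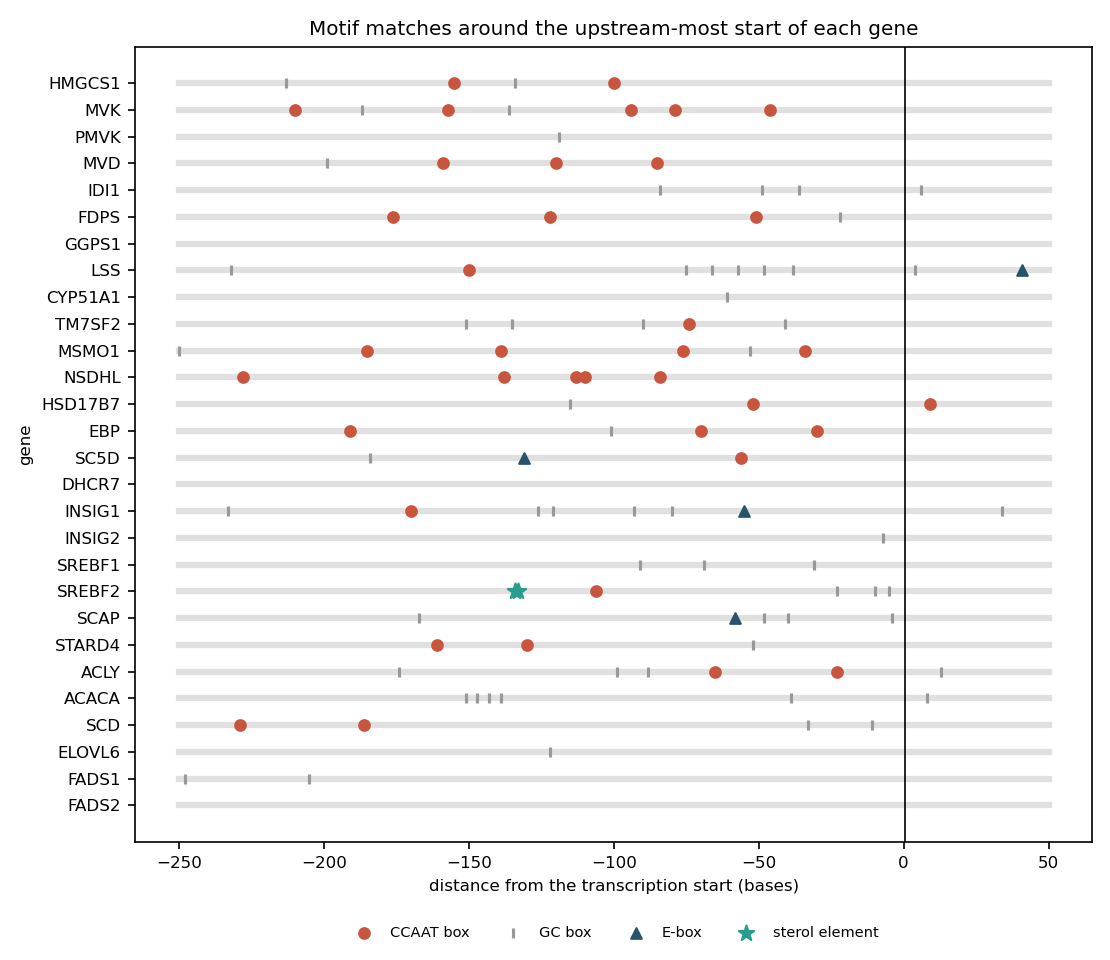
Motif matches in the upstream-most promoter window of 28 members, by distance in bases from the transcription start (vertical line), with CCAAT boxes as circles, GC boxes as ticks, E-boxes as triangles and the sterol element as stars. CCAAT boxes appear in 16 of the 28 windows, most of them before the start, and the sterol element only in that of SREBF2.

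Of the 32 members, 29 had at least 1 probe set that names the gene and no other, and all 29 exceeded the floor somewhere among the 4 arrays. The floor is the 50th percentile of each array, a signal of 53.7 to 60.3, and 27 members lay above it on all 4 arrays. The exceptions were MVD and FADS2, each with 1 array under it. The probe sets of CYP51A1 and FADS1 carry several gene symbols and FDFT1 had none, so these 3 genes were not analysed here. Each gene is given by the brightest of its probe sets on average, with others given for some genes. Signals of different genes come from different probes and are not compared with each other. In a bulk array a lower share of cells that express a gene and less RNA per cell cannot be told apart.

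The arrays had been scaled alike, with a trimmed mean signal of 500.1 on each. CDH1, which encodes E-cadherin, read 5548 on E+CD133+ and 3546 on E+CD133-, against 347 on E-CD133+ and 528 on E-CD133-. PROM1, which encodes CD133, read 4.79 to 29.7, below the floor on all 4 arrays, so the CD133 groups rest on the reporter alone. The ratio of 3' to 5' signal, a sign of RNA quality, was 1.53 to 1.78 for actin and 0.898 to 1.02 for GAPDH, highest for both on the E-CD133+ array. Among markers of other cell types, PTPRC moved with CD133. This gene, the only 1 of 3 on the leukocyte list above the floor on all arrays, read 1246 and 1102 on the CD133-high and 346 and 505 on the CD133-low arrays. CD14 was under the floor on every array and CD3E on all but E+CD133- (62.5), and the summed signal of the list was 1283 and 1165 against 414 and 534. The summed fibroblast signal, mostly COL3A1, was 31329.5 and 21706 on the CD133-high and 24412 and 17562 on the CD133-low arrays, higher in both pairs. The summed mesenchymal signal, mostly VIM, was 12735 on E+CD133+ and 1923 on E+CD133-, against 21612 on E-CD133+ and 14079 on E-CD133-. The part of these in the results below was not tested.

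CD133-high cells had higher signals of sterol synthesis genes than CD133-low cells of the same E-cadherin state. Across the 29 members, 8 were at least 2-fold higher in both pairs and 0 were lower. That rule held for 2.45% (higher) and 1.12% (lower) of the 14083 measured genes. The 8 were ACAT2, HMGCS1, MVD and IDI1 of the isoprenoid steps, SQLE, TM7SF2 and MSMO1 of the sterol steps, and the sterol sensor INSIG1. They ranked 80 (HMGCS1) to 419 (MVD) from the top among all measured genes by mean log2 ratio. By any margin, 24 of the 29 were higher in both pairs, against 31.0% of measured genes, and 3 were lower in both (31.3%), PMVK, SREBF1 and SCAP. The median log2 ratio of CD133-high over CD133-low was 0.72 in the E-cadherin-high pair and 0.75 in the E-cadherin-low pair, against -0.05 and 0.06 over all measured genes. Both CD133-high arrays lay above both CD133-low arrays for 20 of 29 members, against 24.6%. With the rule set at 1.5-fold 14 members were higher, against 6.63% of genes, and at 3-fold 3 were, against 0.675%. Since the list was chosen with earlier results of these data known, these shares describe the members and are not a test.

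The spread between probe sets of a gene gives a scale for these ratios within arrays only. Such probe sets share the RNA and the array, so their spread holds no variation between sorts or arrays. Over 5197 genes with at least 2 probe sets above the floor, the median SD of the log2 ratio between probe sets was 0.28 for the E-cadherin-high pair and 0.24 for the other pair, and over the 14 members with several it was 0.26 and 0.23. An additive limma fit, with 1 residual degree of freedom, was the only test run on these 4 arrays, and its result depended on how the variance was set. For each gene that 1 degree of freedom is the difference between the matched pairs, and not replicate error. With the prior variance following the signal, a setting chosen after the data were seen, 9 members had an adjusted p under 0.05 for CD133, all of them higher, against 1.31% of measured genes called higher and 0.738% called lower. These were ACAT2, HMGCS1, IDI1, SQLE, TM7SF2, MSMO1 and INSIG1 with HSD17B7 and SC5D, and MVD was not among them. The standard errors of these 9 log2 ratios were 0.17 (IDI1) to 0.31 (TM7SF2). With 1 common prior variance, 0 members passed, against 0.192% of genes called higher and 0.199% called lower, and the lowest adjusted p of a member was 0.0560 (TM7SF2). At an unadjusted p under 0.05 this fit gave 15 of 29 members and 16.7% of genes. The calls below are therefore those of the fold rule, and a gene is called higher only where it met that rule.

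**Figure D2:**
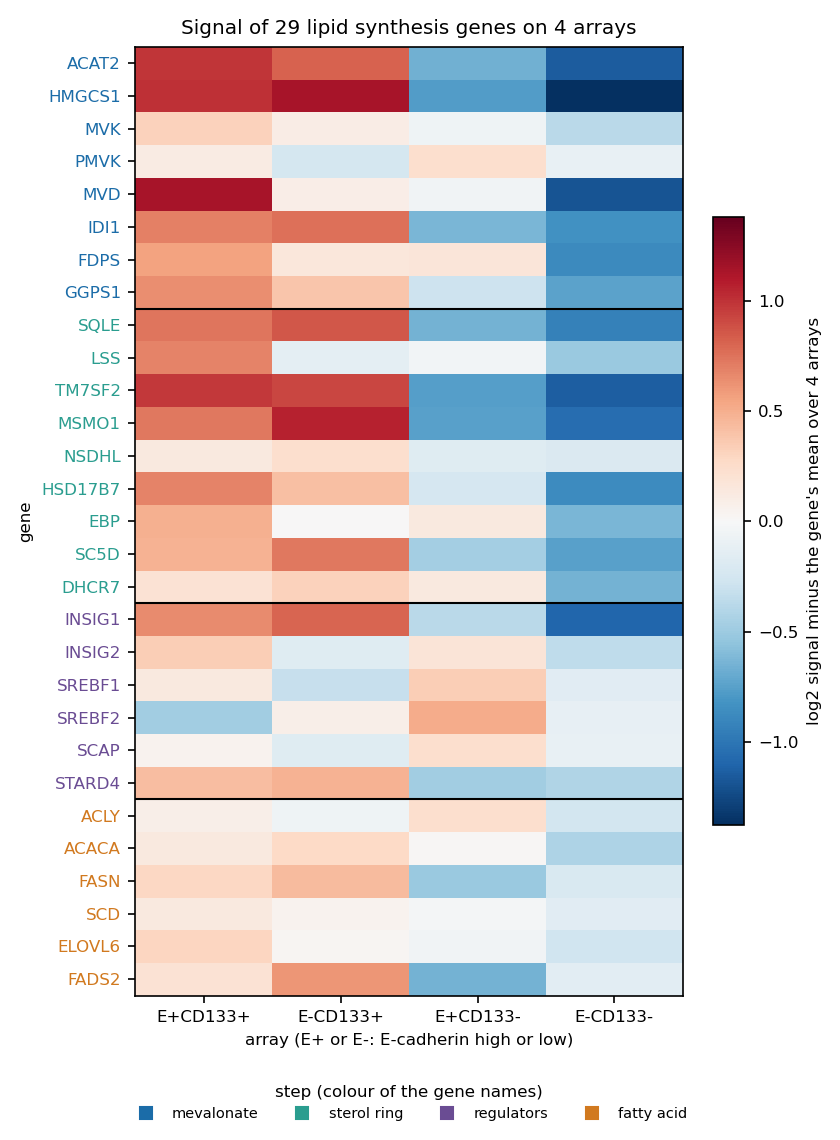
Log2 signal of 29 members on the 4 arrays, minus the mean of the gene over the arrays, with signals under the floor set to it, in order of pathway step. The CD133-high columns are red for most mevalonate and sterol ring genes, and the E-CD133- column is the lowest for 22 of 29 members.

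The first steps make isopentenyl and farnesyl units, and 4 of 8 measured members were called higher. ACAT2, the cytosolic thiolase that joins 2 acetyl-CoA, read 8527 on E+CD133+ and 7593 on E-CD133+, against 2734 on E+CD133- and 1954 on E-CD133-. Both CD133-high arrays were thus more than 2-fold above both CD133-low arrays, with log2 ratios of 1.64 in the E-cadherin-high pair and 1.96 in the E-cadherin-low pair. ACAT2 is measured by a single probe set marked as able to bind related transcripts (_s_at). With the trend fit the limma adjusted p was 0.00719, and 0.0575 without it. HMGCS1, the synthase that makes HMG-CoA, read 5291 and 5778 on the CD133-high arrays (E+ and E-) and 1544 and 1012 on the CD133-low arrays. Its second probe set read 1616 and 1611 against 462 and 261, and the log2 ratios were 1.81 and 2.62 there, beside 1.78 and 2.51 for the first. IDI1, the isomerase of isopentenyl diphosphate, read 10586 and 11064 against 4225 and 3664. A second IDI1 probe set gave log2 ratios of 1.04 and 1.73, and the third, dimmer, 0.40 and 0.30. These 3 IDI1 probe sets are of a kind marked as able to bind related transcripts. The remaining IDI1 probe set, which is not so marked and lay under the floor on 1 array, gave 0.74 as a bound and 0.23.

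MVD, the decarboxylase at the end of the mevalonate steps, was the only called gene with an array under the floor. It read 285 on E+CD133+, 139 on E-CD133+, 126 on E+CD133- and 26.5 on E-CD133-, and the last lies under the floor. The log2 ratios were 1.18 in the E-cadherin-high pair and at least 1.28 in the E-cadherin-low pair. The only MVD probe set is marked as able to bind related transcripts (_s_at). GGPS1, which makes geranylgeranyl diphosphate for protein prenylation, fell just short of the rule with log2 ratios of 0.92 and 1.12, and its second probe set gave 0.88 and 1.40. FDPS, the farnesyl diphosphate synthase, is given by array because of its values, which were seen first. It read 18581 on E+CD133+, 14087 on E-CD133+, 14157 on E+CD133- and 6868 on E-CD133-. Only the E-CD133- array stood apart for FDPS, and the CD133 log2 ratios were 0.39 and 1.04. The 2 kinases of the pathway were not called. MVK had log2 ratios of 0.38 and 0.47, with a dim probe set at -0.17 in E-cadherin-low cells, and PMVK had -0.12 and -0.14. Over the 8 genes the median of the mean log2 ratio was 1.13, but 0.87 with a floor at the 65th percentile, 0.87 without probe sets marked _x_at and 0.71 without any marked as able to bind related transcripts. The value of 0.71 covers fewer genes, since ACAT2, PMVK and MVD have no unmarked probe set.

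The squalene and sterol ring steps had 3 of 9 measured members called higher, and all 9 were higher in both pairs by some margin. SQLE, the epoxidase that acts on squalene, read 9944 and 10790.0 on the CD133-high arrays and 3802 and 3128 on the CD133-low arrays. All 4 SQLE probe sets were at least 2-fold higher in both pairs. The 3 above the floor on all arrays had log2 ratios of 1.18 to 1.39 in the E-cadherin-high pair and 1.31 to 2.01 in the E-cadherin-low pair. MSMO1, which takes methyl groups off the ring, read 11873 and 14961 against 4285 and 3479. TM7SF2, a sterol reductase, read 852 and 821 against 257 and 197, with log2 ratios of 1.73 and 2.06. In each of these 3 genes the lowest CD133-high array was more than 2-fold above the highest CD133-low array. HSD17B7, a ketosteroid reductase, had log2 ratios of 0.91 and 1.28, and SC5D, a sterol desaturase, had 0.94 and 1.48. Both passed 2-fold only in E-cadherin-low cells. TM7SF2 and HSD17B7 are each measured here by a single probe set marked as able to bind related transcripts (_s_at and _x_at).

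The other ring genes had smaller ratios with the probe sets used. LSS, which closes the ring, had log2 ratios of 0.72 and 0.37, and a second probe set, above the floor on 3 arrays, gave at least 1.22 in the E-cadherin-high pair and 0.89 in the other. EBP, a sterol isomerase, had 0.35 and 0.63, and its other probe sets gave 0.97 and 0.93, 0.43 and 0.39, and 0.18 and 0.20. NSDHL, a decarboxylating dehydrogenase, had 0.30 and 0.43. DHCR7, the last reductase of a route to cholesterol and singled out in the same way, read 1419, 1545 and 1353 on E+CD133+, E-CD133+ and E+CD133-, and 786 on E-CD133-. By this probe set DHCR7 was thus lower on the E-CD133- array alone, with CD133 log2 ratios of 0.07 and 0.98. Its second probe set was graded over the arrays, with ratios of 0.48 and 0.84. That probe set read 1297 on E+CD133+, 982 on E-CD133+, 929 on E+CD133- and 550 on E-CD133-. Over the 9 ring genes the median of the mean log2 ratio was 1.10, but 0.88 without probe sets marked _x_at and 0.62 without all marked ones. These last medians cover fewer genes. HSD17B7 drops out of both, and TM7SF2 and DHCR7 drop out of the second. SC5D is then read from a probe set above the floor on 2 arrays.

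The regulators did not move together. INSIG1, itself a target of SREBPs, read 7440.5 on E+CD133+, 8275 on E-CD133+, 3657 on E+CD133- and 2225 on E-CD133-. The log2 ratios were 1.02 and 1.90, so the E-cadherin-high pair lies just inside the 2-fold rule. The other INSIG1 probe sets gave 0.96 and 1.67, and 1.39 and 1.82. INSIG2, its paralogue, read 920.4, 649, 829 and 574 on the arrays in the same order, a split by E-cadherin rather than CD133, with CD133 log2 ratios of 0.15 and 0.18. SREBF1 read 544, 397, 626 and 444, and SCAP read 1211, 1043, 1381 and 1092. Both were lowest on E-CD133+ and highest on E+CD133-, and their CD133 log2 ratios were -0.20 and -0.16 for SREBF1 and -0.19 and -0.07 for SCAP. A second SREBF1 probe set, above the floor on 2 arrays only, gave -1.04 and 0.57.

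SREBF2 gave a different answer with each probe set. The probe set with the highest mean read 158, 233, 315 and 205, log2 ratios of -0.99 and 0.19. A second read 211, 206, 192 and 195 (0.13 and 0.08), and the third 244, 188, 194 and 90.7 (0.33 and 1.05). No direction for SREBF2 is given. The SD between these probe sets, 0.71 in E-cadherin-high cells, was the highest of the 14 members with several. STARD4, a carrier of sterol between membranes, read 3259 and 3370.1 on the CD133-high and 1737 and 1816 on the CD133-low arrays. The 2 CD133 groups of STARD4 did not overlap, and the log2 ratios of 0.91 and 0.89 fell just short of the rule. Over the 6 genes, including INSIG1, the median of the mean log2 ratio was 0.02.

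**Figure D3:**
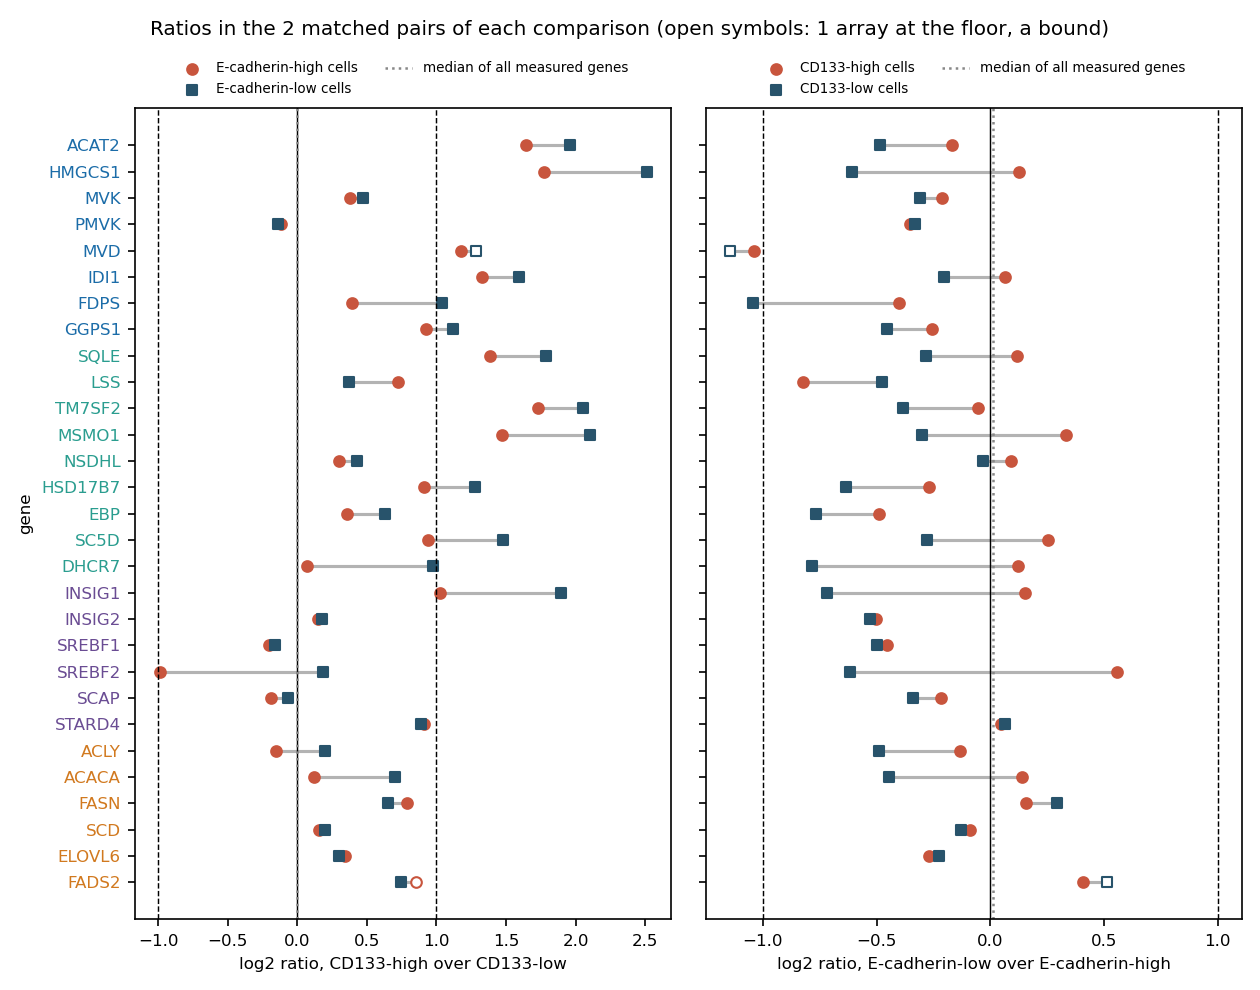
Log2 ratios of 29 members in the matched pairs of each comparison, with CD133-high over CD133-low at left and E-cadherin-low over E-cadherin-high at right; gene names are coloured by pathway step, dashed lines mark 2-fold and open symbols are bounds. In the left panel 8 genes have both points beyond the right dashed line, and in the right panel MVD alone has both beyond the left one.

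Of the fatty acid genes, 0 of 6 measured were called in either direction, which is near the 2.45% and 1.12% of all genes. By any margin 5 of the 6 were higher in both pairs, against 31% of genes. Both CD133-high arrays lay above both CD133-low arrays for 5 of the 6, against 24.6%. ACLY, which makes cytosolic acetyl-CoA from citrate, read 17489, 15923, 19487 and 13881 on E+CD133+, E-CD133+, E+CD133- and E-CD133-. ACLY signals of the CD133 groups overlapped, with log2 ratios of -0.16 and 0.20, while its other probe sets gave 0.33 and 0.54, and 0.37 and 0.62. ACACA, the carboxylase that makes malonyl-CoA, read 2275, 2505, 2095 and 1539, and the log2 ratios of its second probe set were -0.34 in the E-cadherin-high pair and 0.44 in the other. FASN, the synthase of palmitate, read 1271, 1416, 736 and 901, so that both CD133-high arrays lay above both CD133-low arrays, at log2 ratios of 0.79 and 0.65. The second FASN probe set, above the floor on 3 arrays, gave 0.53 and -0.25. ELOVL6, an elongase, read 2863, 2376, 2259 and 1932, with log2 ratios of 0.34 and 0.30, and its other probe sets gave 0.38 and 0.36, and 0.77 and 0.74. FADS2, a desaturase, read 103, 137, 53.6 and 81.9, the third under the floor, with log2 ratios of at least 0.85 and 0.75.

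SCD, which introduces the double bond of oleate, was another gene whose probe sets disagreed. The one with the highest mean read 17255, 16239, 15478 and 14144, and the groups differed little, at log2 ratios of 0.16 and 0.20. The next read 4052, 5433, 3326 and 2049 (0.28 and 1.41). The third read 1942, 2821, 897 and 681 (1.11 and 2.05) and met the 2-fold rule. The fourth read 1116, 2115, 898 and 376 (0.31 and 2.49). All 4 are marked as able to bind related transcripts, the fourth as _x_at and the others as _s_at. All 4 were higher in both pairs, and the SD between them in E-cadherin-low cells was 0.997, the highest of the 14 members. Counting probe sets in place of genes, 15 of the 61 above the floor on at least 1 array met the rule upwards, against 1.85% of all such probe sets, and 0 downwards, against 0.952%. Over the 6 fatty acid genes the median of the mean log2 ratio was 0.37.

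**Figure D4:**
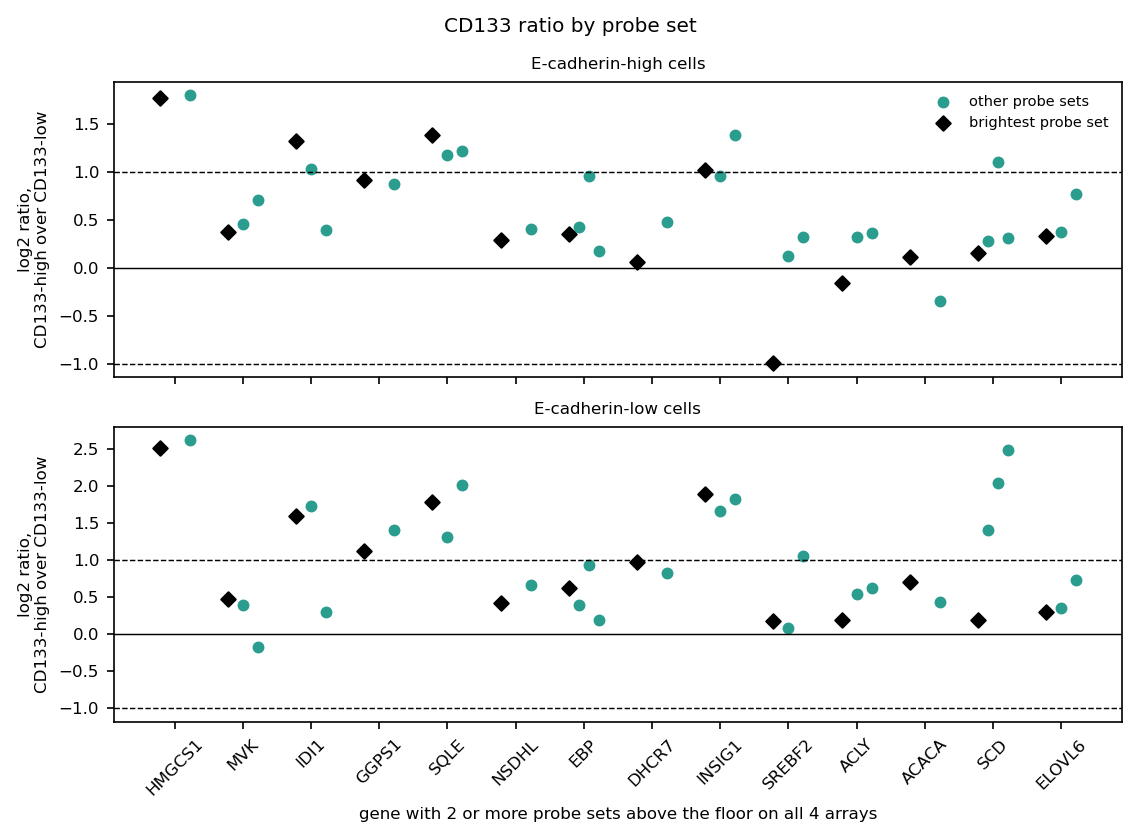
CD133 log2 ratio of each probe set above the floor on all 4 arrays, for the 14 members with at least 2 such probe sets, in E-cadherin-high cells (top) and E-cadherin-low cells (bottom); diamonds are the probe set used for the gene and dashed lines mark 2-fold. The probe sets of HMGCS1 and INSIG1 lie close together, whereas those of SCD, SREBF2 and IDI1 spread over more than 1 log2 unit in at least 1 panel.

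The CD133 ratio was larger among E-cadherin-low than among E-cadherin-high cells for 23 of 29 members, against 53.5% of measured genes. This depended on the scaling of the arrays. With the arrays set to equal medians the count was 16, against 40.4%, and the members' median log2 ratio was 0.82 in the E-cadherin-high pair and 0.67 in the other. The gap was widest, leaving out SREBF2, for DHCR7 (0.07 against 0.98), INSIG1 (1.02 against 1.90), HMGCS1 (1.78 against 2.51) and FDPS (0.39 against 1.04). In E-cadherin-low cells alone 12 members were at least 2-fold higher, adding FDPS, GGPS1, HSD17B7 and SC5D, against 8.11% of genes. In E-cadherin-high cells alone the count was 8, against 5.04%. Equal medians gave 11 in E-cadherin-low cells (7.0% of genes) and 12 in E-cadherin-high cells (6.48%), so the order of these counts is not settled. With 1 array in each group, the difference between the pairs was not tested. The median absolute difference between the pairs was 0.28 for members and 0.37 for all measured genes.

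The same contrast can be seen from the side of E-cadherin, since both comparisons use the same 4 arrays and the array E-CD133- enters both. E-CD133- was the lowest array for 22 of 29 members, against 27.0% of measured genes, and the highest for 0, against 24.1%. These counts follow in large part from the CD133 difference given above. For the 24 members higher in both CD133 pairs, the lowest array must be a CD133-low one and E-CD133- cannot be the highest. All 9 sterol ring members and 7 of 8 isoprenoid members had their lowest signal there. Among CD133-low cells, 26 of 29 members were lower in E-cadherin-low than in E-cadherin-high cells by any margin, against 56.2%, with a median log2 ratio of -0.44. STARD4, FASN and FADS2 were the exceptions. Among CD133-high cells 16 of 29 were lower, against 45.6%, with a median of -0.09. The contrast between these counts depended on the scaling of the arrays. With equal medians 25 members were lower among CD133-high and 26 among CD133-low cells. Their median log2 ratios were then -0.25 and -0.44, against -0.12 and 0 over all measured genes.

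In the E-cadherin comparison 0 members were at least 2-fold higher in both pairs (0.476% of measured genes) and 1 was lower (0.540%). That member was MVD, with log2 ratios of -1.04 in CD133-high and -1.14, a bound, in CD133-low cells. In CD133-low cells alone 2 members passed 2-fold downwards, against 2.87% of genes, as FDPS joined MVD with -0.40 and -1.04. LSS had -0.82 and -0.48 (0.05 and 0.37 for its second probe set), EBP -0.49 and -0.77 (0.60 and 0.58 for the 1 of its 4 probe sets that was higher), INSIG2 -0.50 and -0.53 and SREBF1 -0.45 and -0.50, all without passing. Several called genes of the CD133 comparison split by pair here, such as MSMO1 with 0.33 and -0.30 and HMGCS1 with 0.13 and -0.61. The additive limma fit gave 0 members with an adjusted p under 0.05 for E-cadherin with either variance setting. With the trend this compares with 0.0639% of genes called higher and 0.0852% called lower, and with the common variance 0 genes of any kind passed. There were 4 members at an unadjusted p under 0.05 in each fit, against 6.82% of genes with the common variance and 6.92% with the trend. Setting the arrays to equal medians moves the median of all genes in CD133-high cells from 0.05 to -0.12 and the count of lower members there from 16 to 25. The distance of the members from the median of all genes, -0.13, is the same under both by construction, and it was -0.05 after quantile scaling.

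Genes around the pathway were read from 6 further lists. In the CD133 comparison 0 of 14 measured genes for SREBP cleavage and degradation met the 2-fold rule, 0 of 13 for isoprenoid and dolichol use, 0 of 7 for LXR targets, sterol efflux and esterification, and 0 of 18 for fatty acid oxidation. Of 14 genes for sterol uptake and traffic, 1 was higher, GRAMD1B, which moves sterol from the plasma membrane, with 417 and 466 on the CD133-high and 206 and 152 on the CD133-low arrays. Of 24 further genes for fatty acid synthesis, activation and glycerolipids, 1 was higher, ACSS2, which makes acetyl-CoA from acetate. ACSS2 read 1589 on E+CD133+, 1125 on E-CD133+, 501.0 on E+CD133- and 240 on E-CD133-, log2 ratios of 1.66 and 2.23. In these lists 0 genes were called lower for CD133 and 0 in either direction for E-cadherin. At 2.45% of all genes called higher, counts of 0 or 1 in lists of this size are near the background. The list medians of the mean CD133 log2 ratio were -0.25 (isoprenoid use) to 0.49 (LXR and efflux).

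**Figure D5:**
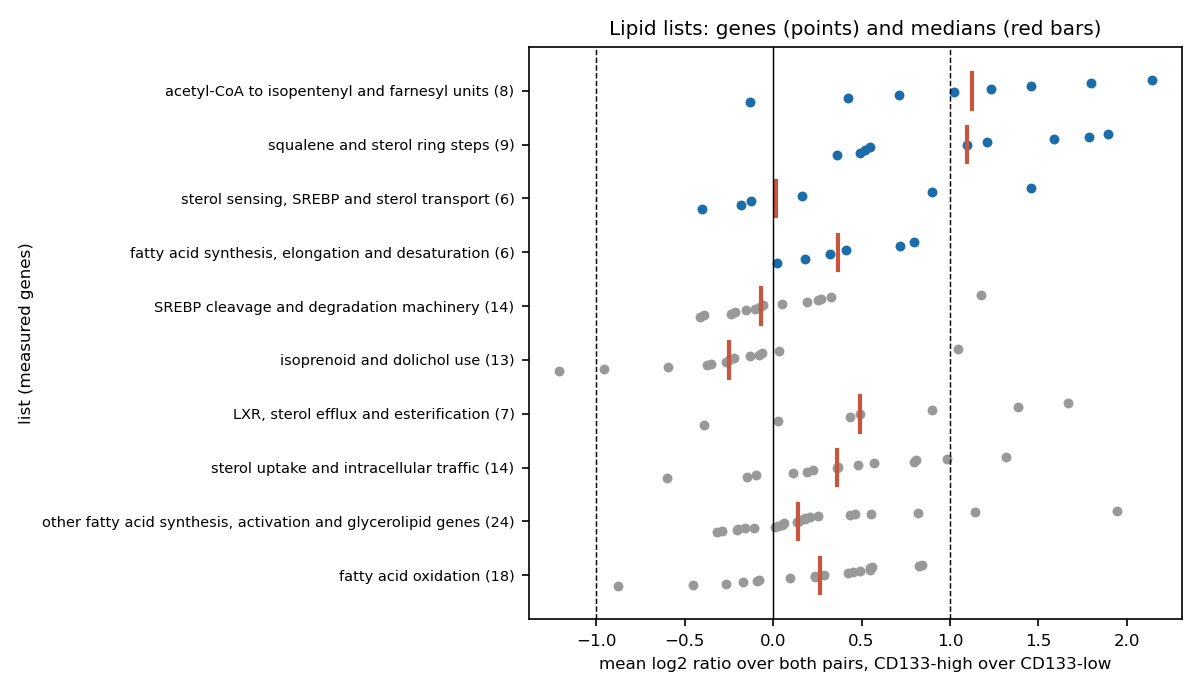
Mean CD133 log2 ratio over both pairs for the measured genes of the 4 groups of members (blue) and of 6 further lipid lists (grey), with list medians as red bars and 2-fold as dashed lines; the number of genes stands in brackets. The medians of the first 2 lists lie at 1.13 and 1.10 with the probe sets used here (0.71 and 0.62 over fewer genes without marked ones), and those of the other 8 between -0.25 and 0.49.

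Members with a CCAAT box in a promoter window had a median mean CD133 log2 ratio of 0.80 (21 genes, 6 of them called higher). The 5 measured members without one, PMVK, INSIG2, SREBF1, SCAP and ELOVL6, had -0.13 with 0 called. INSIG2, SREBF1 and SCAP among them are regulators, a group with a median of 0.02, so the box and the pathway step cannot be told apart. ACAT2 and SQLE, both called higher, had no window and are left out, as is FASN. A link between the box and the ratio was not tested. Over all measured genes with a window the medians were 0.00 with the box (4818 genes) and 0.00 without it (6513 genes), and 2.45% and 2.33% were called higher. The window of SREBF2 printed above holds both the sterol element and a CCAAT box, and its array signal has no settled direction here.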

How the data were processed

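Total RNA of 4 sorted subpopulations was hybridised to 1 Affymetrix array each, with a biotin label. The values are deposited intensities per probe set on a linear scale, made by the authors with MAS5 per the submitters' processing notes, with no version stated. Detection calls, scan dates and batches were not used here. Probe sets with 1 gene symbol in the platform annotation (41097 of 54675) were used, each gene by the probe set that was brightest on average in log2. Signals under the 50th percentile of an array were set to it. A gene above this floor on at least 1 array was measured, and a ratio with 1 array at the floor is a bound. Log2 ratios were taken in matched pairs, and genes at least 2-fold apart in the same direction in both were called, with no test. An additive limma fit (Benjamini-Hochberg) is an alternative, as are quantile scaling, equal medians, other floors, an offset of 50, other probe set choices and other folds. All members may be named; genes of other lists only where called or where they changed direction between pairs, and neighbouring genes after their values were seen. Members and lists were chosen with earlier results of these data known. The procedure was tested on simulated data. With 1 array per group the number of arrays limits the precision. Python 3.11.15, numpy 2.4.6, pandas 2.3.3, matplotlib 3.10.9, R 4.3.3 and limma 3.58.1 were used.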

Additional observations from a re-analysis of the deposited data

Results flagged for a closer look

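Among 119 lipid genes screened, 2 had ratios of at least 1.5-fold in opposite directions in the 2 pairs of a comparison, and 0 of the 29 members did. The share of all measured genes that meet this rule was not computed. These counts therefore do not show whether the members are steadier than other genes. SOAT1, which esterifies cholesterol for storage, had CD133 log2 ratios of 0.63 in the E-cadherin-high pair and -1.42 in the E-cadherin-low pair, a difference of -2.05. It read 4439 on E-CD133- and 1250.0 to 1939 on the other arrays, so that array alone stands high. NPC1, which moves cholesterol out of lysosomes, had E-cadherin log2 ratios of 1.21 in the CD133-high pair and -0.75 in the CD133-low pair, a difference of -1.95, and read 8459 on E-CD133+ against 2455 to 4117 on the others. Each rests on 1 array per group, and neither difference was tested.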

How the results depend on the processing

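For CD133, the 8 members called higher became 4 of 19 measured without probe sets marked _x_at, _s_at or _a_at (HMGCS1, SQLE, MSMO1 and INSIG1). Of all genes measured in that way, 269 of 11095 were called higher. The count was 14 at 1.5-fold (6.63% of genes) and 3 at 3-fold (0.675%). The additive limma fit gave 0, and with a variance trend, added after the data were seen, 9. Equal medians gave 11, with 370 of 14083 measured genes called higher. The median log2 ratio over all 29 measured members, 0.71, was 0.68 after quantile scaling, 0.54 with a floor at the 65th percentile, 0.54 with 50 added, 0.59 with the mean over probe sets, 0.48 without probe sets of the 3 marked kinds and 0.53 without those marked _x_at. For E-cadherin, the 1 lower member (MVD) became 0 with a floor at the 65th percentile, 0 with 50 added, 0 without marked probe sets (it has no other), 0 at 3-fold, 0 in either limma fit and 2 in the CD133-low pair alone, which was added after the data were seen. MVD also left the CD133 calls with the higher floor (0.53) and with 50 added, and IDI1 with the mean over probe sets (0.92) and without those marked _x_at (0.48). Over these settings 0 called members reversed. The sign of the mean CD133 ratio changed for SREBF2 alone, with the mean over probe sets and without marked ones. The SREBP regulator median of 0.02 became -0.03 after quantile scaling, 0.15 with the mean over probe sets and 0.14 without marked ones. No block by replicate number was fitted, since the labels carry none; the 2 pairs are matched by the other sorting marker. MVD and FADS2, near the floor, are limited by signal over background.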

Other observations

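Genes lying next to a member on the chromosome in the RefSeq order were read for the 17 that were measured and are no members; they were looked at after the data were seen. Of these, 2 were at least 2-fold higher in both CD133 pairs, against 2.45% of measured genes, and 0 were lower. IDI2-AS1, an antisense RNA beside IDI1, read 184 and 285 on the CD133-high and 83.0 and 76.0 on the CD133-low arrays, log2 ratios of 1.15 and 1.90. PKD2L1, a channel gene beside SCD, read 145 and 200.5 against 60.4 on E-CD133- and a signal under the floor on E+CD133-, log2 ratios of at least 1.34 and 1.73. The neighbours as a group had a median mean CD133 log2 ratio of 0.32, beside 0.71 for the members.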
